A study of Rattus norvegicus with 6 samples.

Results

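The angiotensin and endothelin systems are represented here by 9 genes, chosen by name from the 2 peptide systems with earlier results of these data known. They are the precursor gene Agt and the peptide gene Edn1, the enzymes Ace and Ece1, the receptors Agtr1a, Agtr2, Ednra and Ednrb, and Atp6ap2, an accessory receptor of the angiotensin system. Of these 9 genes, 7 had a row by that name among 28293 genes of a table of RNA sequencing of rat myocardium, and Agtr2 and Atp6ap2 were not analysed here. The samples were 3 sham and 3 MI/RI (myocardial ischemia/reperfusion injury) samples from wild-type male rats. In the MI/RI group the left anterior descending coronary artery was tied for 30 min and released, and the heart was taken 6 h later. Both times also stand in the titles of the sham samples, whose operation is described no further, and which region of the heart was sequenced is not stated. Values are FPKM, fragments per kilobase of gene scaled to library size, so that genes can be compared per length, and the question addressed here is how these genes differed between MI/RI and sham hearts.

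Both systems make a small peptide by cutting a larger precursor, and both peptides raise vascular tone through receptors coupled to Gq and G12/13 proteins. Angiotensinogen, the product of Agt, is cut first, and angiotensin-converting enzyme, the product of Ace on the endothelial surface, makes angiotensin II, which acts mainly through the type 1 receptor encoded by Agtr1a. Endothelial cells are the main source of endothelin 1, from Edn1, which the converting enzyme of Ece1 releases from its inactive form. The receptor encoded by Ednra contracts vascular smooth muscle, whereas that of Ednrb, on endothelial cells, releases nitric oxide and removes endothelin from the circulation, and it also contracts smooth muscle where it is expressed there.

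Of the 6 genes that could be tested, Ednrb was higher in the MI/RI group and none was lower. Ednrb rose 2.91-fold. The groups did not overlap for Ece1 either, whose level was 1.52-fold higher but fell just short of the threshold. With the replicate number as a block Ece1 passed (adjusted p = 0.041, limma), in a fit that called 28.2% of all genes higher. Ednra, Edn1, Ace and Agtr1a did not pass the test, and Agt was below the level required for the test. Of all 10942 genes tested, 25.5% were called higher and 7.36% lower by limma with Benjamini-Hochberg adjustment at 0.05. The groups did not overlap, with MI/RI above, in 37.2% of these genes, and with MI/RI below in 13%. Among the 6 members the first count was 2 and the second was 0. The median log2 difference was -0.04 over the 6 members and 0.29 over all genes tested, so that the members were on balance below the shift of the whole table.

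**Figure D1:**
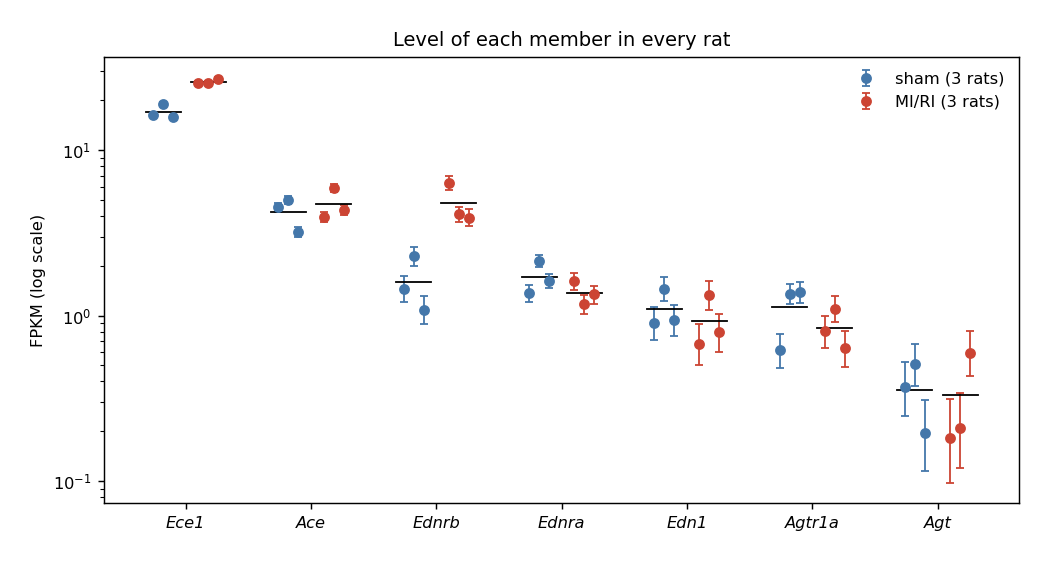
FPKM of the 7 genes in each of the 3 sham and 3 MI/RI samples, on a log axis, with a point for each sample, a 95% counting interval from its fragment number, and a line at each group mean. The word rat in the figure stands for a sample. The groups do not overlap for Ednrb (1.09 to 2.28 in sham and 3.91 to 6.34 in MI/RI) and Ece1 (15.8 to 19.1 and 25.4 to 26.8), whereas the other 5 genes overlap.

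The libraries differed in composition as well as in these genes. Transcripts of the mitochondrial genome (13 mRNAs) took 80.1 to 86.2% of the summed FPKM in sham and 61.8 to 71.5% in MI/RI. FPKM are relative values, so any fall in that share lifts every other gene, and the part of this in each result below was not tested except where ratios within a sample are given. When the values were rescaled over the other genes, the median of all genes moved from 0.29 to -0.46 on the log2 scale. Depth relative to sham replicate 1 was 1 to 1.18 in sham and 0.873 to 0.935 in MI/RI. The whole numbers of fragments recovered from the FPKM steps summed to between 8905722 and 11173865 in sham and between 11845253 and 15490193 in MI/RI. These sums leave out the mitochondrial mRNAs and any other gene for which no such numbers were recovered. Of the 10942 genes tested, 10883 had them. In bulk tissue, fewer cells of a type cannot be told apart from less RNA per cell.

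Ednrb and Ece1 are shown first by sequence, since the only members without overlap between the groups were these 2. The promoter windows are from RefSeq (GRCr8), 250 bases before to 50 after the start of the gene, in lower case, with matches to the GC box motif in capitals. The build that the authors used is not given in the sources used here, and the promoters were matched by symbol, which found 6 of the 7 genes with a row.
Ednrb: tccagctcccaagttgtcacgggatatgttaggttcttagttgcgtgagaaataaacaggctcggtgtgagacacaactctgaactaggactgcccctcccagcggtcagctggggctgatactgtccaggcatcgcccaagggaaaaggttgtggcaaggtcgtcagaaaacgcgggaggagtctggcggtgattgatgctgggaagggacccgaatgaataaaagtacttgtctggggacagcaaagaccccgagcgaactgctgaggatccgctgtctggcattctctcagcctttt
Ece1: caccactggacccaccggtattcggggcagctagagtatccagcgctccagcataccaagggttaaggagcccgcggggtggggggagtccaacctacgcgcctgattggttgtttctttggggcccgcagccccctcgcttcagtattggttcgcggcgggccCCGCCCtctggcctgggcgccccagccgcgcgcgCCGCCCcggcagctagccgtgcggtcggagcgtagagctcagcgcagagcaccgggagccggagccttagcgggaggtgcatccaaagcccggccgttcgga
The Ednrb window lies at chr15:87086716-87087015 on the minus strand and has 54% GC. The Ece1 window lies at chr5:155360781-155361080 on the plus strand and has 69.3% GC. Motifs were searched on both strands. GGGCGG, the GC box bound by Sp1-type factors, was found at 2 places in the Ece1 window and at 0 in that of Ednrb, and 33.1% of 33469 rat promoters of that length held it. Neither window held TATAAA, the TATA box (14.2% of promoters), or TGANTCA, the AP-1 site (7.33%). A match or its absence describes these letters only.

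Edn1 encodes the peptide precursor of endothelin 1. With samples in the order of their replicate number, here and in what follows, its FPKM was 0.903, 1.46 and 0.944 in sham and 0.676, 1.33 and 0.793 in MI/RI, from 49 to 143 fragments a sample. Replicate 2 was the highest in each group, and the groups overlapped, although each MI/RI sample was below the sham sample of its number (adjusted p = 0.56 with the replicate block, limma). The means were 1.10 ± 0.310 and 0.932 ± 0.347 (SD, n = 3). The log2 difference was -0.24 (SE 0.33, 95% interval -0.97 to 0.49, adjusted p = 0.60, limma with Benjamini-Hochberg adjustment), which at this spread leaves room for a fall to 0.510-fold or a rise to 1.40-fold.

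Ece1, the enzyme that makes endothelin 1 active, was the most abundant member. It measured 16.3, 19.1 and 15.8 FPKM in sham and 25.5, 25.4 and 26.8 FPKM in MI/RI, from 3641 to 5307 fragments. Every MI/RI sample was above every sham sample, and the MI/RI samples lay close together. The means were 17.1 ± 1.77 and 25.9 ± 0.760 FPKM (SD, n = 3). The log2 difference was 0.60 (SE 0.21, 95% interval 0.13 to 1.07), with an adjusted p of 0.051 in limma. With the replicate number as a block, the replicate block fit gave an adjusted p of 0.041 for Ece1, and it called 28.2% of all genes higher. Rescaled over the genes other than the mitochondrial mRNAs, the Ece1 difference turned to -0.18 (adjusted p = 0.61, limma), with 7.25% of all genes called higher and 26.1% lower. Relative to the median of all genes, the Ece1 difference was 0.31 as deposited and 0.28 after that rescaling. The rescaling divides all genes of a sample by the same number, so that closeness was fixed apart from the pseudocount. The value was -0.20 with quantile normalization and -0.058 among genes with a mean of at least 5 FPKM.

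Ednrb encodes the endothelin B receptor. It measured 1.45, 2.28 and 1.09 FPKM in sham and 6.34, 4.09 and 3.91 FPKM in MI/RI, from 104 to 227 and 290 to 466 fragments. All MI/RI samples were above all sham samples. The means were 1.61 ± 0.613 and 4.78 ± 1.36 FPKM (SD, n = 3), and the log2 difference was 1.54 (SE 0.31, 95% interval 0.86 to 2.23, or 1.81-fold to 4.68-fold). The adjusted p was 0.0066 (limma with Benjamini-Hochberg adjustment), and 8.11% of all tested genes had a larger log2 difference. Leaving out any one sample gave 1.31 to 1.81 on the log2 scale and the call was kept each time. On the recovered fragment numbers, with limma's voom, the log2 difference was 1.59 (adjusted p = 0.0037), and 26.7% of all genes were called higher. The rescaling over the non-mitochondrial genes gave 0.79 with an adjusted p of 0.080 (limma), which ends the call. Relative to the median of all genes, the difference was 1.25 both as deposited and after that rescaling. The rescaling divides all genes of a sample by the same number, so this match was fixed apart from the pseudocount. It does not bear on the lost call.

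Ednra, which encodes the endothelin A receptor, measured 1.37, 2.14 and 1.62 FPKM in sham and 1.61, 1.17 and 1.34 FPKM in MI/RI. The groups overlapped, with sham replicate 2 highest and MI/RI replicate 2 lowest. The means were 1.71 ± 0.396 and 1.38 ± 0.224 FPKM (SD, n = 3), and the log2 difference was -0.28 (SE 0.26, 95% interval -0.86 to 0.29, adjusted p = 0.42, limma). After rescaling over the non-mitochondrial genes it was -1.02 with an adjusted p of 0.035 (limma), the one setting in which a member was called lower.

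The 2 endothelin receptors can be set against each other within a sample, where library scaling cancels. Ednrb made up 51.5, 51.6 and 40.2% of the summed FPKM of Ednra and Ednrb in sham, and 79.7, 77.8 and 74.4% in MI/RI. The share was thus close to equal in sham and tilted to Ednrb in all MI/RI samples, without overlap. The mean share was 47.8% ± 6.54 in sham and 77.3% ± 2.67 in MI/RI, 29.6 percentage points higher (exact permutation test, two-sided, p = 0.1, the smallest value that 3 against 3 samples allow). The summed FPKM of both receptors was 3.32 ± 0.963 and 6.16 ± 1.56 (exact permutation test, two-sided, p = 0.1). The log2 ratio of Ednra to Ednrb was 0.12 ± 0.36 in sham and -1.70 ± 0.22 in MI/RI, a difference of -1.83 (exact permutation test, two-sided, p = 0.1, and 0.15 after Benjamini-Hochberg adjustment over the 3 ratios examined). The log2 ratio of Edn1, the ligand, to Ece1, its enzyme, was -3.86 ± 0.21 and -4.71 ± 0.48, a difference of -0.84 without overlap (exact permutation test, p = 0.1, adjusted 0.15). The log2 ratio of the angiotensin receptor Agtr1a to Ednra was -0.62 ± 0.41 in sham and -0.66 ± 0.50 in MI/RI, with overlap (exact permutation test, p = 1).

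**Figure D2:**
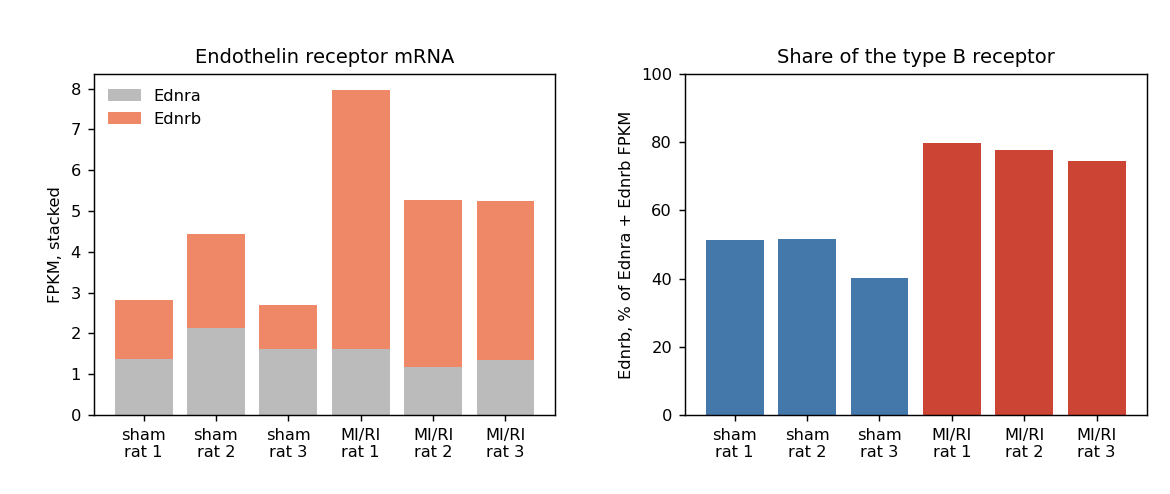
Stacked levels of Ednra and Ednrb (FPKM) in each of the 3 sham and 3 MI/RI samples on the left, and the share of Ednrb in their sum (%) on the right. The word rat in the figure stands for a sample. The share lies between 40.2 and 51.6% in sham and between 74.4 and 79.7% in MI/RI.

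In the angiotensin branch, Agt encodes the precursor angiotensinogen, which the liver supplies in large amounts. Its FPKM was 0.368, 0.509 and 0.194 in sham and 0.183, 0.210 and 0.598 in MI/RI, from 13 to 49 fragments a sample, below the mean of 0.5 FPKM required for the test. The groups overlapped, and the highest and the lowest value were both MI/RI samples (exact permutation test, two-sided, p = 0.9). Fitted without the filter on low values, the log2 difference of Agt was -0.15 (SE 0.46, 95% interval -1.25 to 0.94, adjusted p = 0.85, limma), and its SD over samples was 2.50 times that of counting in sham and 3.45 times in MI/RI. Cyp11b2, which makes aldosterone in the adrenal gland, was listed at 0 in all 6 samples.

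Ace measured 4.52, 5.02 and 3.22 FPKM in sham and 3.96, 5.89 and 4.37 FPKM in MI/RI, from 761 to 1305 fragments. The groups overlapped, with the lowest value in sham replicate 3 and the highest in MI/RI replicate 2. The means were 4.26 ± 0.927 and 4.74 ± 1.01 FPKM (SD, n = 3), and the log2 difference was 0.16 (SE 0.25, 95% interval -0.41 to 0.73, adjusted p = 0.67, limma). Its sign depended on the scaling and on single samples.

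Agtr1a, the main angiotensin II receptor, measured 0.618, 1.36 and 1.39 FPKM in sham and 0.803, 1.10 and 0.635 FPKM in MI/RI, from 67 to 192 fragments. The groups overlapped, and sham replicate 1 was the lowest sample. The means were 1.12 ± 0.436 and 0.845 ± 0.234 FPKM (SD, n = 3), and the log2 difference was -0.32 (SE 0.36, 95% interval -1.13 to 0.48, adjusted p = 0.51, limma). Its close paralog Agtr1b was listed at 0 in all 6 samples, and the counting between the 2 is not described in the sources used here. The SD of the members over samples was 2.11 to 6.99 times that expected from counting fragments alone.

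Ordered by level, sham hearts had Ece1 (17.1), Ace (4.26), Ednra (1.71), Ednrb (1.61), Agtr1a (1.12), Edn1 (1.10) and Agt (0.357 FPKM). The ranges of neighbours from Ednra to Edn1 overlapped, so these 4 were not separated beyond their spread, whereas Ece1, Ace and Agt each lay apart from their neighbours. In MI/RI hearts Ednrb (4.78) stood beside Ace (4.74 FPKM), with overlapping ranges, and both were above Ednra (1.38 FPKM). By mean level Ednrb thus ranked after Ace and Ednra in sham and before both in MI/RI.

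**Figure D3:**
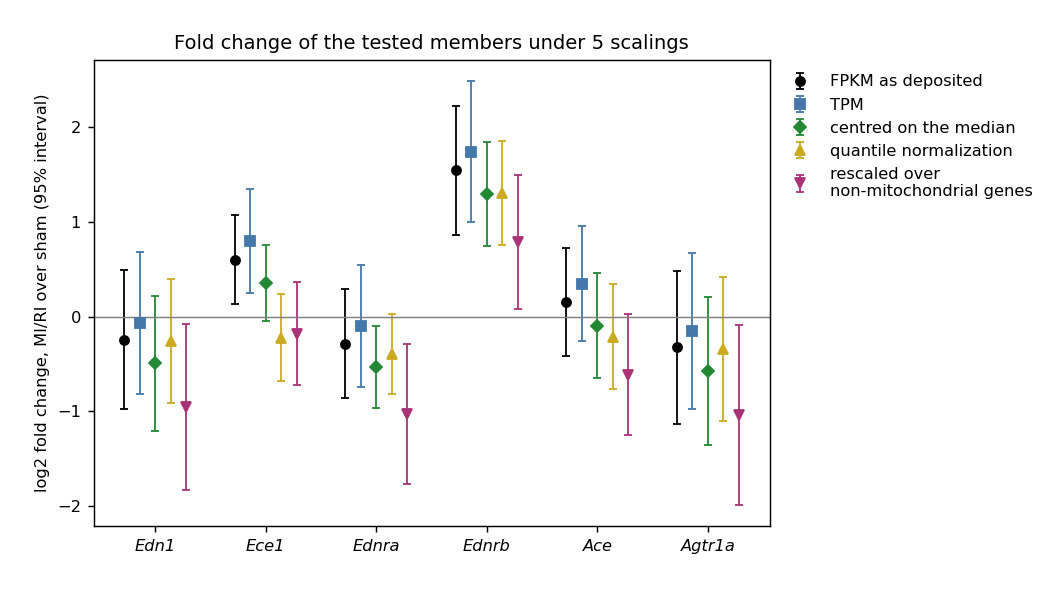
Log2 difference, MI/RI minus sham, of each of the 6 tested genes under 5 scalings, with points for the limma estimates and bars for their 95% intervals. Ednrb lies above 0 in all 5 (0.79 to 1.74), whereas Ece1 spans -0.22 to 0.80 and Ace -0.61 to 0.35.

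Endothelial cells are known to express Edn1, Ece1, Ace and Ednrb, and their markers were set beside these genes. None of the 8 endothelial markers passed the test in either direction, and their median log2 difference was -0.22. Their summed FPKM was 199.8 to 254.8 in sham and 197 to 228.4 in MI/RI. The markers were split, with 3 of the 8 above 0. Kdr rose by 0.72 (adjusted p = 0.0501, limma), more than the 0.60 of Ece1, and Tek fell by 0.55 (adjusted p = 0.081, limma). Neither Kdr nor Tek overlapped between the groups. Relative to the mean of the 8 markers in the same sample, Ednrb was 1.59 higher in MI/RI and Ece1 0.65 higher on the log2 scale, each without overlap (exact permutation test, p = 0.1 each, adjusted 0.45 over 9 comparisons). On that scale Ace differed by 0.20 and Edn1 by -0.19 (exact permutation test, p = 0.5 each). Ednra differed by -0.57 relative to 9 smooth muscle and pericyte markers (exact permutation test, p = 0.3), and Agtr1a by -0.61 relative to the same markers (p = 0.5 in the exact permutation test) and by -0.66 relative to 6 fibroblast markers (p = 0.2). The value relative to smooth muscle and pericyte markers was -1.24 without sham replicate 1 and -0.18 without sham replicate 3. Agt differed by -0.49 relative to the fibroblast markers (exact permutation test, p = 0.2) and by 0.30 relative to 2 adipocyte markers (p = 0.6). These 2, Cfd and Lipe, differed by -0.23 and -0.67 on the log2 scale. The untested adipocyte markers Adipoq, Cidec, Lep and Plin1, all under the mean of 0.5 FPKM, went the other way, by 1.30, 0.74, 0.68 and 0.63. The sign of the Agt value thus rests on which adipocyte markers were used.

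Markers of other cell types were counted beside these genes, and of all genes 25.5% were called higher and 7.36% lower. Of 6 tested cardiomyocyte markers, 5 were higher, among them Actc1 and Myh6, with Ryr2 the exception, and their summed FPKM was 3219 to 10510 in sham and 21170 to 30370 in MI/RI. Of 5 neutrophil and monocyte markers, 3 were higher (S100a9, S100a8 and Cd14), with summed FPKM of 51.5 to 67.2 and 78.5 to 144.4. Of 6 mast cell markers, 3 were lower (Cpa3, Tpsab1 and Ms4a2), with sums of 16.4 to 41.6 and 10.5 to 13.9. Of 9 smooth muscle and pericyte markers, 1 was higher (Notch3) and 2 were lower (Kcnj8 and Pdgfrb), with sums of 91.6 to 281.3 and 111.2 to 305.1. Of 6 fibroblast markers, 1 was higher (Col1a1), with sums of 416.2 to 574.4 and 589.7 to 652.9. No adipocyte marker passed the test, but only 2 of the 6 listed were tested. The untested Adipoq measured 1.72 FPKM in MI/RI replicate 2, against 0 and 0.235 in MI/RI replicates 1 and 3 and 0 to 0.143 in sham. Plin1 and Cidec were also highest in MI/RI replicate 2, whereas Lep was not, and the reason was not tested. Of 3 atrial markers, 1 passed (Sln, higher). The atrial marker Myl7 did not pass (log2 2.96, adjusted p = 0.080, limma). It measured 133.2 FPKM in MI/RI replicate 3, against 2.73 and 3.57 in MI/RI replicates 1 and 2 and 0.905 to 2.16 in sham. The reason was not tested. The part of these cells in the level of Ednrb or Ece1 was not tested beyond the endothelial ratios above.

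The genes whose pattern over the 6 samples was most like that of Ednrb were Rab5c (Pearson r = 0.999), Armt1 (0.997) and Dnajc21 (0.997), among 8582 genes. For Agtr1a they were Emcn (0.988), Cpsf6 (0.987) and Gpbp1 (0.984), among 8583. Ednrb and Ece1 correlated with r = 0.947 over the 6 samples. These 6 points share 2 groups and their libraries, so the values describe the table only.

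The rest of the pathway was read from 5 lists of 71 genes, of which 53 were tested. Of these, 19 were higher and 0 were lower by limma with Benjamini-Hochberg adjustment, beside 25.5% and 7.36% of all genes, and the median log2 difference was 0.47 against 0.29 for all genes. Of the 19 called higher, 10 were in the list of genes that respond to angiotensin II or endothelin. Rescaled over the non-mitochondrial genes, 10 of the 53 were higher and 9 lower, and without sham replicate 3 there were 10 higher and 0 lower. Among 9 tested genes that cut angiotensin peptides, 3 were higher (33.3%, beside 25.5% of all genes) and 0 lower (beside 7.36%), with a median of 0.18. They were Thop1 (log2 1.76, adjusted p = 0.0029), an oligopeptidase that makes angiotensin-(1-7), Prep (1.05, adjusted p = 0.020), and, named after its values were seen, Anpep (0.73, adjusted p = 0.027), both peptidases, all in limma. Rnpep, the most abundant gene of the list that did not pass, measured -0.05 on the log2 scale. Chymase Cma1, a mast cell enzyme that also makes angiotensin II, measured 17.1, 6.79 and 7.40 FPKM in sham and 1.63, 9.17 and 3.70 FPKM in MI/RI. It was named after its values were seen. The groups overlapped, and the log2 difference was -1.29 with an adjusted p of 0.10 in limma. Ctsg, another protease of the list, was listed at 0 in all 6 samples.

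Of the other receptors and partners of angiotensin and aldosterone, 3 of 8 were tested and 0 were called in either direction by limma, with a median of 0.59. Hsd11b1, which regenerates glucocorticoid, was the most abundant of them at 0.13 on the log2 scale. Of 5 other genes of the endothelin system, Edn2 and Edn3 were listed at 0 in all 6 samples and the rest were under the mean of 0.5 FPKM, so none was tested.

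The list for Gq and G12/13 coupling holds the G proteins, genes that act after them and regulators that limit the signal. It gave 6 higher and 0 lower of 24 tested, or 25.0% against the 25.5% of all genes. The median was 0.14, below the 0.29 of all genes, and the counts mix genes of opposite action. The largest was Rgs2, a regulator that shortens Gq signalling, at 1.11, 1.73 and 3.16 FPKM in sham and 11.3, 6.65 and 7.90 FPKM in MI/RI (log2 2.14, adjusted p = 0.0040, limma). Rgs5, a regulator of G proteins in pericytes, followed (log2 1.37, adjusted p = 0.014, limma). The others that rose, named after their values were seen, were the G protein genes Gnaq, Gna12 and Gna13 (1.34, 1.15 and 1.14) and the kinase Rock2 (0.96). Rhoa, the most abundant gene that did not pass, measured 0.47 with an adjusted p of 0.136.

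Of 17 tested genes known to respond to angiotensin II or endothelin, 10 were higher and 0 lower, with a median of 1.55. That is 58.8% higher, beside 25.5% higher and 7.36% lower of all genes. The list was chosen with earlier results of these data known. These genes also respond to injury, stretch and inflammation. Il6, an inflammatory cytokine, was listed at 0 in 2 sham samples and at 0.0290 in the other, against 5.12, 6.12 and 8.60 FPKM in MI/RI (adjusted p = 1.6e-05, limma). Fos, an immediate early transcription factor, measured 0.611, 0.530 and 0.420 FPKM in sham and 50.7, 8.74 and 9.81 FPKM in MI/RI (adjusted p = 0.0014, limma). Nppb, a natriuretic peptide of stretched heart muscle, did not pass (log2 1.66, adjusted p = 0.16, limma), and MI/RI replicate 1 stood far above the others at 160.4 FPKM.

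**Figure D4:**
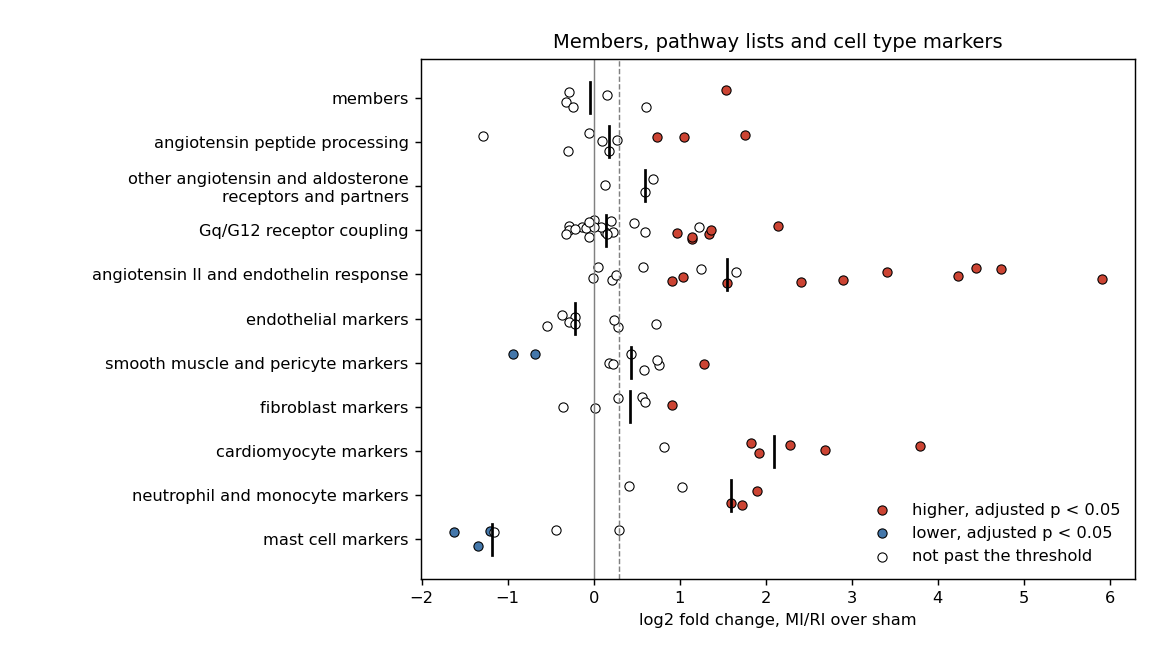
Log2 difference, MI/RI minus sham, of each tested gene of the members, of the 4 pathway lists with tested genes and of 6 marker lists, with filled points for genes past the threshold, a short line at each median and a dashed line at the median of all genes. The medians of the pathway lists are 0.18 for peptide processing, 0.59 for other receptors, 0.14 for Gq and G12/13 coupling and 1.55 for the response genes, beside 0.29 for all genes.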

How the data were processed

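The authors deposited 1 table of FPKM values per gene and sample for 3 sham and 3 MI/RI myocardial samples (stranded total RNA libraries). The submitters' processing notes name STAR and HTSeq. Genome build and annotation are not given in the sources used here. Rows with the same symbol were summed. The members and lists were chosen with earlier results of these data known.

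Log2(FPKM + 0.1) of the 10942 genes with a mean of at least 0.5 FPKM was tested in R 4.3.3 with limma 3.58.1, by its functions lmFit and eBayes (trend), with Benjamini-Hochberg adjustment over all genes and a threshold of 0.05. The log2 scale with a pseudocount understates changes of low genes. Single values were compared with exact permutation tests, whose smallest p is 0.1. The labels do not say more about how samples were drawn, so p-values measure the spread between these samples, which may be technical. The ratio of FPKM between samples gave whole numbers of fragments, taken as the smallest whole numbers whose ratios match all 6 values within a relative 3e-07, for 10883 of 10942 genes (99.5%), and limma's voom on them was added after seeing the data. Intervals and limits of such numbers cover counting error only.

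The main comparison used no block, as the sources used here state no pairing, although the limit given below for taking the numbers as pairs was met. Replicate numbers come from the sample labels. Samples of 1 number, each taken as its difference from the mean of its group, correlated at 0.203, 0.117 and 0.118, all over 0.1, the limit set for taking the numbers as pairs. Of the other pairings, sham 3 with MI/RI 2 also reached 0.120, so the pairing is weakly marked, and the fit with the replicate block is given where it changed a call. Named genes were all members, and of each other list up to 2 genes with the largest log2 differences in each direction past the threshold and the most abundant gene that did not pass. Other markers named beside a count were chosen after their values were seen. For likeness, the members with the largest positive and negative differences were each given the 3 genes of highest Pearson correlation, among genes of at least 1 FPKM. Other pseudocounts, filters, scalings and leaving out each sample were tried. Some genes of the lists are not reported here.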

Additional observations from a re-analysis of the deposited data

How the results depend on the processing

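Of 103 recomputed log2 differences of tested members, 90 kept their direction and side of the threshold. Of 96 ratios and values relative to markers, 89 kept their direction and moved within the replicate spread, and 86 of 108 counts of genes stayed within 1.5 times. The cause was not tested for the others. The Ace log2 difference turned to -0.093 with median centring, -0.21 with quantile normalization and -0.61 over the non-mitochondrial genes, and ranged from -0.027 to 0.28 leaving out 1 sample, below 0 without sham replicate 3 or MI/RI replicate 2. Ece1 passed at 0.60 with no filter, at a mean of 5 FPKM and with the replicate block (adjusted p = 0.041, limma), and at 0.80 as TPM, and turned to -0.22 with quantile normalization and -0.18 over the non-mitochondrial genes. That last rescaling gave Ednra -1.02 (called) and Ednrb 0.79 (not called). Members called higher were 2 with no filter, as TPM or with the replicate block, which changed no other member's call, and 0 over the non-mitochondrial genes, where 1 was lower. At a mean of 5 FPKM the 1 called was Ece1, and Ednrb was not tested. Leaving out 1 sample, Agt ranged from -0.56 to 0.088. Pathway genes called higher fell from 19 to 12 with no filter and 10 over the non-mitochondrial genes, and were 10 to 18 leaving out 1 sample (10 without sham replicate 3). Those called lower were 1 centred, 5 with quantile normalization, 9 over the non-mitochondrial genes and 0 to 1 leaving out 1 sample. With a pseudocount of 1 the Ednra to Ednrb difference was -1.33 and that of Ednrb to endothelial markers 1.20. Leaving out 1 sample, Agtr1a to Ednra ranged from -0.33 to 0.17, Edn1 to endothelial markers from -0.46 to 0.022 and Agt to adipocyte markers from -0.039 to 0.58.

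Over all genes, 2790 were called higher and 805 lower (77.6% higher). The counts were 3449 and 504 as TPM (87.3% higher), 2020 and 1554 centred (56.5%), 1441 and 1559 with quantile normalization (48.0%), 793 and 2857 over the non-mitochondrial genes (21.7%), 1892 and 166 at a mean of 5 FPKM (91.9%), 1919 and 309 without sham replicate 2, and 1528 and 359 without sham replicate 3. One further ratio that was planned was not run. Every member varied more between samples than its fragment numbers alone give.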
